A study of Mus musculus with 3 samples.

Results

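NF-kB is a family of dimeric transcription factors, and IkB proteins bind its dimers. The 10 genes described here encode the 5 mouse subunits (Nfkb1, Nfkb2, Rel, Rela and Relb) and 5 IkB proteins (Nfkbia, Nfkbib, Nfkbie, Nfkbiz and Bcl3). They were taken by gene symbol and identifier, and are 10 of the 55536 annotated genes. The rule uses no measured value, but the family was chosen with earlier results of these data known.

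All libraries were made from RNA of the chromatin fraction of bone-marrow-derived macrophages (BMDM), primary cells of the mouse strain C57BL/6J. The cells had been exposed for 60 minutes to Lipid A at 100 ng/ml, the moiety of lipopolysaccharide sensed by the receptor TLR4. The labels gave 1 group of 3 biological replicates, which were total RNA-seq libraries depleted of ribosomal RNA, begun from 1000 ng (replicate 1), 250 ng (replicate 2) and 500 ng (replicate 3) of RNA. Sex and age were not collected. Unstimulated cells were not analysed here, and every value below is a level after stimulation. The replicates carried the same donor entry and nothing said that they came from separate animals, so the spread between them may be technical.

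In resting macrophages, classical IkB proteins hold NF-kB dimers in the cytoplasm. TLR4 signalling activates the IkB kinase (IKK), which marks classical IkB for destruction, and the freed dimers enter the nucleus and bind kB sites in DNA. Several genes of the family are themselves targets of NF-kB: Nfkbia encodes the inhibitor that ends the first wave, and the nuclear proteins made from Nfkbiz and Bcl3 tune which targets respond. RNA on chromatin is largely nascent or still being processed, so unspliced and partly spliced molecules are part of what is counted.

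Gene counts totalled 13318395, 15352661 and 15812581 in replicates 1, 2 and 3, and the 10 genes together took 0.488%, 0.429% and 0.464% of them. In every library all 12 macrophage markers reached 1 TPM (TPM is a share of all transcripts corrected for length), and their summed level ranged from 571 to 830 TPM. That threshold was reached in every library by 1 of 8 T cell markers, Cd28 at 10.9 ± 3.3 TPM (SD, n = 3), and by 0 of 6 B cell, 0 of 8 neutrophil, 0 of 6 fibroblast, 0 of 6 erythroid and 0 of 6 dendritic cell markers. The summed levels of those lists ranged from 9.93 to 15.4 TPM for T cells, 0.03 to 0.09 for B cells, 0.02 to 0.34 for neutrophils, 0.14 to 1.48 for fibroblasts, 0 to 0.37 for erythroid cells and 1.54 to 2.68 for dendritic cells. No expected count in any library was listed for 4 of 8 T cell markers (Cd3d, Cd3e, Cd3g and Trac), 2 of 6 B cell (Cd79b and Pax5), 5 of 8 neutrophil and 4 of 6 erythroid markers. The second deposited quantification, described further on, had 1 TPM or more in every library for 4 T cell, 2 B cell, 0 neutrophil, 1 fibroblast, 0 erythroid and 2 dendritic cell markers, with Cd3d at a mean of 25.0, Ebf1 at 4.32, Zbtb46 at 3.34 and Ms4a1 at 3.05 TPM. Summed levels there were 35.7 to 45.8 TPM for T cells, 6.91 to 7.97 for B cells and 6.46 to 8.69 for dendritic cells, against 897 to 1083 TPM for macrophages. The part of other cells in the levels below was not tested.

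Levels below are TPM of the deposited gene table with expected counts, called the first table; a second deposited quantification, with estimated counts per transcript, is compared further on. All 10 genes were above 1 TPM in all 3 libraries, and their median level was 92.6 TPM, beside a median of 8.13 TPM over the 7862 protein-coding genes detected by the same threshold. Nfkb1, Nfkbia, Nfkbiz and Nfkb2 stood highest, and Rela, which encodes the activating subunit p65, stood lowest of the 10. The lowest of them still lay at percentile 93.8 of all 22015 protein-coding genes. Only 55 of 22015 coding genes had a higher mean than Nfkb1.

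**Figure D1:**
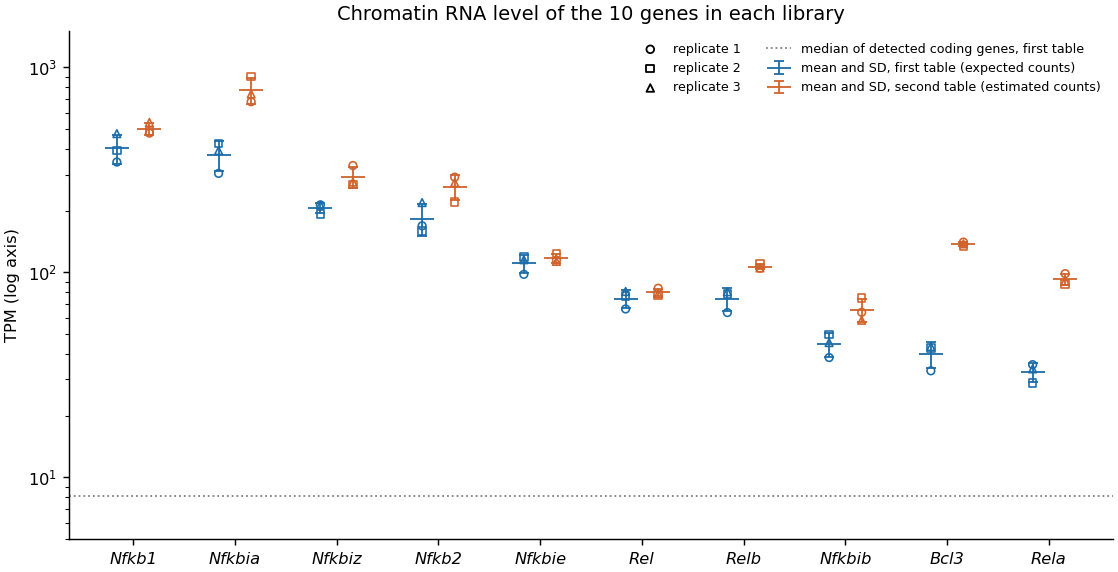
Level of each gene in TPM on a log axis, with the symbols marking the 3 libraries and the bars the mean and SD, for both deposited quantifications. In the first table the means run between 404 TPM for Nfkb1 and 32.7 TPM for Rela, and the dotted line marks the median detected coding gene at 8.13 TPM.

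The order of the levels in the first table was tested between neighbours by the difference in log2(TPM + 1) within each library. That order was taken from the means of the same 3 libraries, so the sorting largely fixed a positive mean difference in advance. Nfkb1 minus Nfkbia was 0.12 ± 0.20 (SD, n = 3) and positive in 2 of 3 libraries, so that order was within the spread. Nfkbiz minus Nfkb2 was 0.19 ± 0.20, Rel minus Relb 0.01 ± 0.05 and Bcl3 minus Rela 0.27 ± 0.33, each positive in 2 of 3 libraries. The other 5 steps were positive in 3 of 3 libraries. Nfkbia minus Nfkbiz was 0.84 ± 0.31, Nfkb2 minus Nfkbie 0.71 ± 0.26 and Nfkbie minus Rel 0.56 ± 0.06. Relb minus Nfkbib was 0.72 ± 0.08 and Nfkbib minus Bcl3 0.16 ± 0.09. Exact two-sided sign-flip permutation tests gave p = 0.25 for these 5, the smallest value that 3 libraries allow, and 0.45 after Benjamini-Hochberg adjustment over 9 pairs, so no step could pass 0.05. Of these 5, Nfkbib over Bcl3 was reversed in the second table (-1.06), and without correction for length, on the log2(CPM + 1) scale, Nfkbia over Nfkbiz (-0.45) and Nfkbie over Rel (-0.95) were reversed.

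Between libraries the genes varied little. The tagwise biological coefficient of variation of edgeR ran from 0.142 for Nfkbib to 0.184 for Nfkbiz, and 8 of the 10 lay below the median of 0.175 over 12505 genes, with Nfkb2 at 0.179 and Nfkbiz above it. Replicate 2 stood apart: both library pairs with it had a chi-square per degree of freedom of 36.9, against 15.3 for replicates 1 and 3. Without replicate 2 the members ran from 0.109 for Bcl3 to 0.121 for Nfkbiz and the median over all genes was 0.128. By TPM, replicate 1 was the lowest library for 7 of the 10 genes, and also for 75.9% of the 7862 detected coding genes. Coding genes took 18.9% of all TPM in replicate 1, 23.9% in replicate 2 and 22.5% in replicate 3. Relative to the median detected coding gene of each library, a scaling added after the data were seen, replicate 2 was instead the lowest for 8 of the 10 genes, replicate 1 for Nfkbia only and replicate 3 for Nfkbib only. The matching shares over all detected coding genes were not computed, so the 8 of 10 has no background beside it. Some placements were near ties in log2 units. Bcl3 was at -0.040 in replicate 1 and -0.046 in replicate 2, and Nfkbib at 0.007, 0.006 and -0.013 in replicates 1, 2 and 3. By TPM, Rela and Nfkbiz were highest in replicate 1, the library begun from 1000 ng of RNA. Whether the amount of starting RNA bears on these differences was not tested.

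Promoter sequence is shown for the inhibitor and the subunit with the highest levels among the 7 genes with an entry in the RefSeq promoter table, and for the subunit with the lowest level. Each run is the 250 bases before an annotated start, on the gene's strand of GRCm38.p6. Capitals mark matches on either strand to GGGANNTTCC, to the wider GGGNNNNTCC, which includes every match of the first, or to the named degenerate kB consensus, whose matches overlap with those of both. The windows are chr12:55492648-55492897 for Nfkbia (minus strand), chr19:46304487-46304736 for the first of 3 listed starts of Nfkb2 (plus strand) and chr19:5637291-5637540 for Rela (plus strand). This Nfkb2 window lies inside the annotated gene, which begins at 46304320. The highest coding transcript of Nfkb2, Nfkb2-202, starts at 46305696, just after another listed window, chr19:46305445-46305694.
Nfkbia: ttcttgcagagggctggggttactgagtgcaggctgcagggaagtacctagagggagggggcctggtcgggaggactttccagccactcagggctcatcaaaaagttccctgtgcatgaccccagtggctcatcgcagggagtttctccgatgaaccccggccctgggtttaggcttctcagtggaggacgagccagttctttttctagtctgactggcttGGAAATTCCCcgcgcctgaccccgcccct
Nfkb2: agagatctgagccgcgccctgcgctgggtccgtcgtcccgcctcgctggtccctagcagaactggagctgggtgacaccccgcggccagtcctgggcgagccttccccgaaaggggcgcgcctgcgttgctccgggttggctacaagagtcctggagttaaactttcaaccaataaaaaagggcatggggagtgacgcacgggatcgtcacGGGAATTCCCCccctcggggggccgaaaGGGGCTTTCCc
Rela: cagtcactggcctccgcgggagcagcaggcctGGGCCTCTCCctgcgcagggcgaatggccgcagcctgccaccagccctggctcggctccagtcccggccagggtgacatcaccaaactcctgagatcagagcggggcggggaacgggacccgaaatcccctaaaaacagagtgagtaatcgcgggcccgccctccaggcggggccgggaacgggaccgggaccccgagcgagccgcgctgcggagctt

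The Nfkbia window held 1 place with a match, which reads GGGAATTTCC on the opposite strand at -29 to -20 from the start and met all 3 patterns. In the Nfkb2 window the places lay at -39 to -29 and at -11 to -2, and matched the wider pattern and the consensus but not the strict one. The Rela window matched the wider pattern only, at -218 to -209. Of 32851 promoter windows of the same length, 1.21% held the strict pattern, 16.5% the wider one and 3.9% the degenerate consensus. The windows of Rel and Nfkbie held the consensus as well, while those of Bcl3 and Nfkbib held none of the 3 patterns. The windows before the other 2 listed starts of Nfkb2 each held 1 strict match, GGGACATTCC on the opposite strand at -236 to -227 and GGGACTTTCC on the gene's strand at -225 to -216. A match is only a run of letters, and no binding was measured here.

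Nfkb1 encodes p105, the precursor of the DNA-binding subunit p50, and lies on chr3:135584655-135691547 (mm10, minus strand). Its level was 345, 393 and 475 TPM in replicates 1, 2 and 3, the highest of the 10 genes by mean (404 ± 65.5). Most of that level sat on transcripts annotated as retained-intron, which are noncoding isoforms that keep intronic sequence. Their summed level was 291, 338 and 400 TPM, against 43.2, 46.3 and 63.5 TPM for its protein-coding transcripts, so the retained-intron class was the higher one in every library without overlap. It made up 84.9 ± 0.90% of the gene's level. Whether the reads given to this class came from such isoforms or from unspliced Nfkb1 RNA was not tested.

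The isoforms were compared for all genes by the log2 ratio of retained-intron over coding TPM, with 0.5 added to each class, tested against 0 with limma and adjusted by Benjamini-Hochberg over 5601 genes. The SE and p of that test rest on the spread between libraries, which may be technical. They leave out the uncertainty of giving reads to isoforms. Retained-intron isoforms were higher in 35.5% of those genes and coding isoforms in 31.9%, at an adjusted p under 0.05, and the median ratio was 0.08. Of the 10 genes, 7 had both classes, and 2 of them were called with retained-intron isoforms higher, 4 with coding isoforms higher and 1 not at all. Either call was made for 67.3% of all genes tested, and the 6 calls among 7 genes stand against that background. Because each class is a sum over its annotated transcripts, the ratio also depends on how many the annotation lists. Reads from unspliced RNA were not told apart from those of retained-intron isoforms. The median ratio of the 7 genes was -0.48, but 0.13 in the second table and 0.23 by the mean per annotated transcript.

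For Nfkb1 the ratio was 2.75 (SE 0.14, limma adjusted p = 1.31e-06), larger than in 97.2% of genes tested. The 4 transcripts behind it differ in what they cover. Nfkb1-204 starts at the gene start, follows the exons of the longest coding transcript, Nfkb1-201, as far as exon 12, and then runs 1824 bases into intron 12 of 24. Its level was 144, 145 and 194 TPM, the highest of any Nfkb1 transcript. Nfkb1-208 and Nfkb1-210 are single exons with 96.0% and 92.9% of their length in introns, at 73.6 ± 11.6 and 67.7 ± 13.6 TPM. Nfkb1-202, at 40.8 ± 5.88 TPM, is spliced and covers the 3' part, with 7.46% of its length in introns. None of the 4 contains a whole intron of Nfkb1-201. The exon edge at which Nfkb1-204 reads on into the intron is shown next, on the minus strand of chr3:135612364-135612423, with the intronic bases, which open with the splice donor GT, in capitals.
Nfkb1-204, exon 12 into intron 12: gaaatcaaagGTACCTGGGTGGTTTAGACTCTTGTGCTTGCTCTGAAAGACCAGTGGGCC

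Nfkb1-201, the transcript with all 25 exons, was listed at 0 TPM in all 3 libraries. The coding level came from Nfkb1-206, at 27.5 ± 6.08 TPM, and Nfkb1-203, at 23.5 ± 5.42 TPM, both shorter. How firmly reads were given to an isoform differed: the posterior SD of the count was at most 0.0869% of the expected count for Nfkb1-208, 0.0903% for Nfkb1-210 and 0.39% for Nfkb1-204, but up to 6.8% for Nfkb1-203. These 3 largely or partly intronic isoforms had the lowest such values of the Nfkb1 transcripts with counts.

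A separate annotated locus, Gm43430, lies wholly within intron 6 of Nfkb1 on the same strand, at chr3:135650670-135654566. The annotation classes it as TEC, an unspliced locus that still awaits experimental evidence, and it shares 0 exonic bases with Nfkb1. Its level was 79.3, 107 and 102 TPM, above Rel and Relb in every library of the first table. In the second table it had 86.3, 96.0 and 89.2 TPM, above Rel but below Relb, which had 105, 110 and 105 TPM. The level of Nfkb1 does not include Gm43430.

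**Figure D2:**
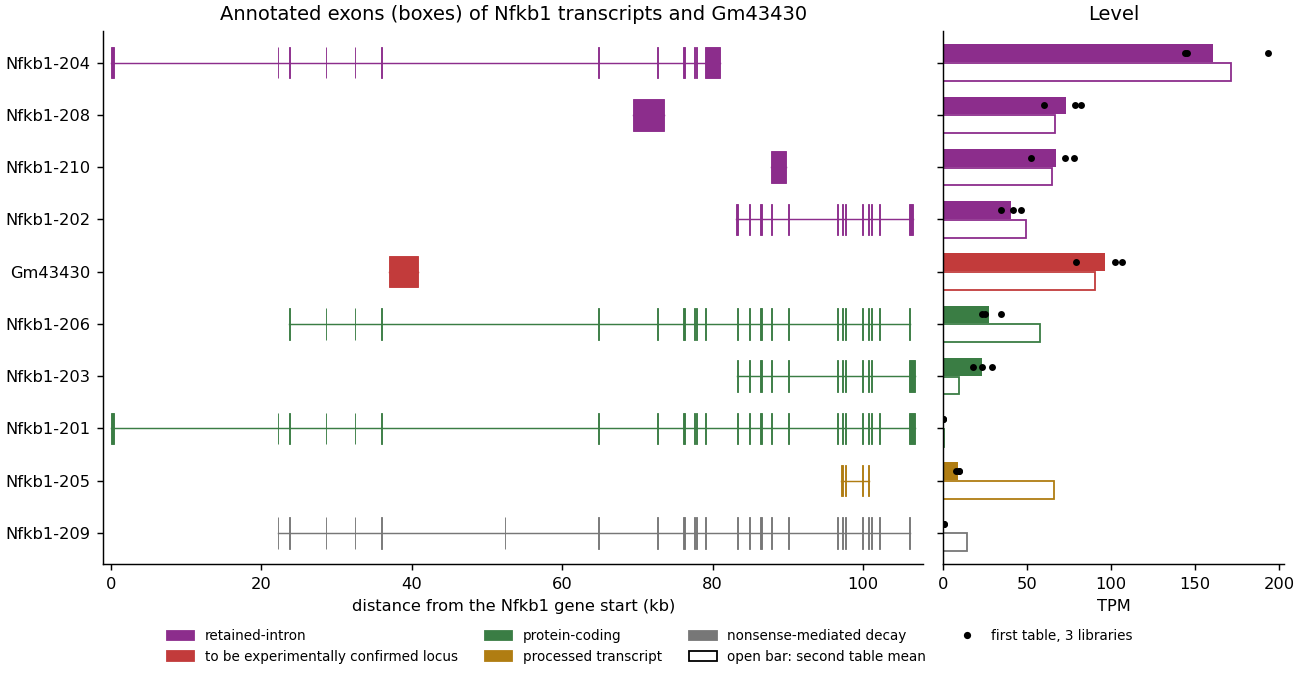
Left, annotated exons (boxes) of the Nfkb1 transcripts and of Gm43430 against the distance from the gene start in kb; right, their TPM, with filled bars for the first table's mean, points for its 3 libraries and open bars for the second table's mean. The largely intronic pieces stand at 96.2, 73.6 and 67.7 TPM, each above the coding transcripts at 27.5 and 23.5 TPM in the first table.

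Nfkb2 encodes p100, the precursor of p52 and the inhibitor of the noncanonical branch, and lies on chr19:46304320-46312385 (plus strand). Its level was 169, 160 and 219 TPM, with replicate 3 highest. Transcripts annotated as retained-intron had 19.4, 19.2 and 19.7 TPM, against 138, 132 and 180 TPM for the coding ones. The 2 annotated classes thus lay far apart, and the level of the retained-intron class was nearly the same in every library. The ratio was -2.90 (SE 0.14, limma adjusted p = 1.31e-06). All of the retained-intron level was Nfkb2-207, which contains 2 whole introns of the 22 in the reference coding transcript Nfkb2-204. These are intron 3 (chr19:46306365-46306485, 121 bases) and intron 13 (chr19:46309075-46309154, 80 bases). Both are shown whole with 10 exon bases on each side, because they are the only complete introns of the gene in a detected retained-intron isoform; capitals mark the intron.
Nfkb2-207, intron 3: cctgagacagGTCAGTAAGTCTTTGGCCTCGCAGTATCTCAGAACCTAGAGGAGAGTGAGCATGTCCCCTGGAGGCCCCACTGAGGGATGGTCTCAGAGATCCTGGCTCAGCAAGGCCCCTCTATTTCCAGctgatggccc
Nfkb2-207, intron 13: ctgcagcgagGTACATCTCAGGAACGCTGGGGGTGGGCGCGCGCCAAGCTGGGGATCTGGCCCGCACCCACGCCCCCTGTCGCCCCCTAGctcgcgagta

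Coding transcripts of Nfkb2 begin at different starts. Nfkb2-202, which starts 1376 bases after the gene start, had 72.9, 54.5 and 69.1 TPM. Nfkb2-206, which starts at the gene start, had 41.2, 47.4 and 47.8 TPM, lower in every library. Both are classed as coding but hold bases that are intronic in Nfkb2-204. Nfkb2-206 contains the whole of intron 22. Of Nfkb2-202, 7.45% of the length lies in introns of Nfkb2-204, but it contains no whole intron. The retained-intron Nfkb2-207 has a like share, 7.08%, but there it is made of 2 whole introns. Nfkb2-201 had 18.3, 26.8 and 58.2 TPM, and its posterior SD reached 24.4% of its count. The excess of replicate 3 over the other libraries was larger on this isoform than on any other.

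By gene-level TPM the 3 Rel-family genes with a transactivation domain were lower than both precursor genes. The coding transcripts of Nfkb1 alone had a mean of 51.0 TPM in the first table. That was below Rel, whose only transcript is coding, and above the coding transcripts of Relb (37.7) and Rela (23.5). Rel, which encodes c-Rel and lies on chr11:23736847-23770970 (minus strand), had 66.2, 76.6 and 80.6 TPM, all of it from its single annotated transcript Rel-201 of 7466 bases. Relb, the partner of p52 in the noncanonical branch, lies on chr7:19606217-19629438 (minus strand) and had 63.6, 78.6 and 80.4 TPM. The levels of Rel and Relb overlapped, and each was the nearest gene to the other among protein-coding genes, at a root-mean-square distance of 0.04 in log2(TPM + 1) over 3 libraries. Rela, on chr19:5637483-5648130 (plus strand), had 35.4, 28.9 and 33.8 TPM, below every library of the other 2. In the second table Rela was above Rel in each library, at 98.5, 87.7 and 90.6 TPM for Rela and 83.6, 77.7 and 78.5 TPM for Rel. By expected counts, which do not correct for its length, Rel was at place 3 of the 10 genes, above Nfkb2 at place 4.

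Relb and Rela both carried coding isoforms above retained-intron ones in the first table. The Relb classes were mainly Relb-206, with 30.5% of its length in introns, and Relb-202. For Relb the retained-intron class had 23.1, 32.3 and 25.2 TPM, against 31.8, 38.6 and 42.7 TPM for the coding class, lower within each library although the ranges overlap. The Relb ratio was -0.48 (SE 0.15, limma adjusted p = 0.019). For Rela the retained-intron class had 9.92, 3.72 and 6.31 TPM, against 20.5, 24.5 and 25.5 TPM for the coding class, with no overlap. All of the coding level was Rela-201, and all of the retained-intron level Rela-203, of which 4.45% lies in introns. The Rela ratio was -1.84 (SE 0.26, limma adjusted p = 0.000343). Neither call held in the second table, where the Relb ratio was 0.43 (adjusted p = 0.0093, retained-intron higher) and the Rela ratio 0.13 (adjusted p = 0.33). The Relb call was also lost without the variance trend (adjusted p = 0.053), without replicate 1 (0.066) and without replicate 3 (0.17), and its ratio was -0.04 with processed and nonsense-mediated-decay transcripts added to the retained-intron class and 0.23 with the mean per transcript in place of the class sum.

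Among the classical IkB genes, Nfkbia (IkB-alpha) was highest at 304, 425 and 393 TPM, followed by Nfkbie (IkB-epsilon) at 97.7, 119 and 115 TPM and Nfkbib (IkB-beta) at 38.4, 49.8 and 45.4 TPM. They lie on chr12:55489410-55492647 (minus strand), chr17:45555703-45563169 (plus strand) and chr7:28758251-28767512 (minus strand). The 3 ranges did not overlap, and by TPM replicate 1 was the lowest library for all of them; relative to the median coding gene it was so for Nfkbia only. In the first table Nfkbia had the lowest ratio of the 7 genes with both classes, while in the second Nfkb2 did (-2.02, against -0.95 for Nfkbia). Its retained-intron transcript Nfkbia-202 had 24.4, 35.5 and 29.96 TPM, against 279, 389 and 363 TPM for the coding transcript Nfkbia-201. The ratio of -3.50 (SE 0.13, limma adjusted p = 4.82e-07) was lower than in all but 1.21% of genes tested. Nfkbia-202 has 4.56% of its bases in introns.

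Nfkbie was the one member with both classes that was not called. Its retained-intron transcript Nfkbie-202 had 51.9, 76.6 and 60.7 TPM, against 45.8, 42.5 and 54.4 TPM for its coding transcripts, higher within each library while the ranges overlap. The ratio was 0.39 (SE 0.17, limma adjusted p = 0.068). With the mean per transcript in place of the class sum it was 1.38 (adjusted p = 0.000253), and in the second table it was 0.02 (adjusted p = 0.92). Nfkbie-202 contains the whole of intron 2 of 5, 610 bases at chr17:45558598-45559207, and was the highest transcript that holds a complete intron of a reference coding transcript among the 10 genes. The edges of that intron are shown with the intronic bases in capitals and 10 exon bases beside them.
Nfkbie-202, intron 2, 5' edge: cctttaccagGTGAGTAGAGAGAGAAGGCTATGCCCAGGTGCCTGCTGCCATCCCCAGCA
Nfkbie-202, intron 2, 3' edge: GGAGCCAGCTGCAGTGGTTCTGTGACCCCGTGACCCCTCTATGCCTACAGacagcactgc

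Nfkbib has only coding transcripts in the annotation. Nfkbib-202 had 33.1, 37.7 and 38.8 TPM and Nfkbib-201 had 5.26, 12.1 and 6.63 TPM, so the shorter isoform carried most of the level in every library.

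**Figure D3:**
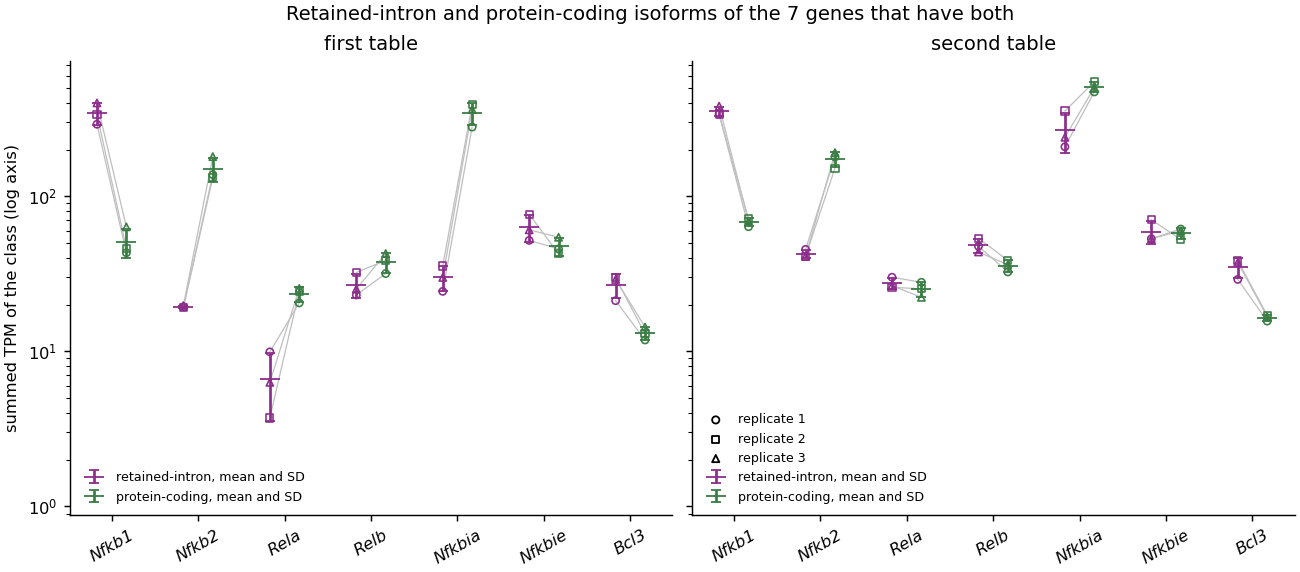
Summed TPM of retained-intron (left of each pair) and protein-coding (right) transcripts on a log axis, for the 7 genes with both classes, with lines joining the same library. In the first table the retained-intron class is higher for Nfkb1 (343 against 51.0 TPM) and lower for Nfkbia (29.95 against 344 TPM).

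The nuclear IkB genes, Nfkbiz on chr16:55811375-55838899 and Bcl3 on chr7:19808462-19822770 (both minus strand), were unlike in level. Nfkbiz encodes IkB-zeta, needed for a subset of late inflammatory genes, and had 213, 193 and 213 TPM, with replicate 2 slightly below the others. Bcl3, whose protein binds p50 and p52 homodimers, had 33.1, 42.8 and 43.4 TPM, far below Nfkbiz in every library. Nfkbiz has 2 annotated starts for its detected coding transcripts. Nfkbiz-204, which starts 16761 bases into the gene, had 137, 138 and 166 TPM. Nfkbiz-203, which starts at the gene start, had 47.8, 26.7 and 23.7 TPM, below Nfkbiz-204 in every library and highest in replicate 1. Nfkbiz-205, a processed transcript that begins at the same upstream start and has 63.3% of its length in introns, had 28.1, 28.3 and 22.6 TPM.

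For Bcl3 the retained-intron class had 21.2, 29.8 and 29.1 TPM, against 11.8, 13.0 and 14.4 TPM for the coding class, higher in every library without overlap. The ratio was 0.99 (SE 0.15, limma adjusted p = 0.0004). The coding level was mainly Bcl3-201, at 11.0 ± 1.06 TPM. The retained-intron transcripts Bcl3-202, at 18.8 ± 2.5 TPM, and Bcl3-206, at 7.93 ± 2.27 TPM, have 46.1% and 37.8% of their bases in introns of Bcl3-201. The counts behind Bcl3 were small, with 493, 509 and 548 expected counts in replicates 1, 2 and 3, against 18087, 18712 and 22825 for Nfkb1. Before correction for length the coding class was the higher one. Bcl3-201, of 1850 bases, had 302, 298 and 333 expected counts. Bcl3-202, of 694 bases, had 143, 154 and 154, and Bcl3-206, of 502 bases, had 29.1, 39.9 and 41.0.

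**Figure D4:**
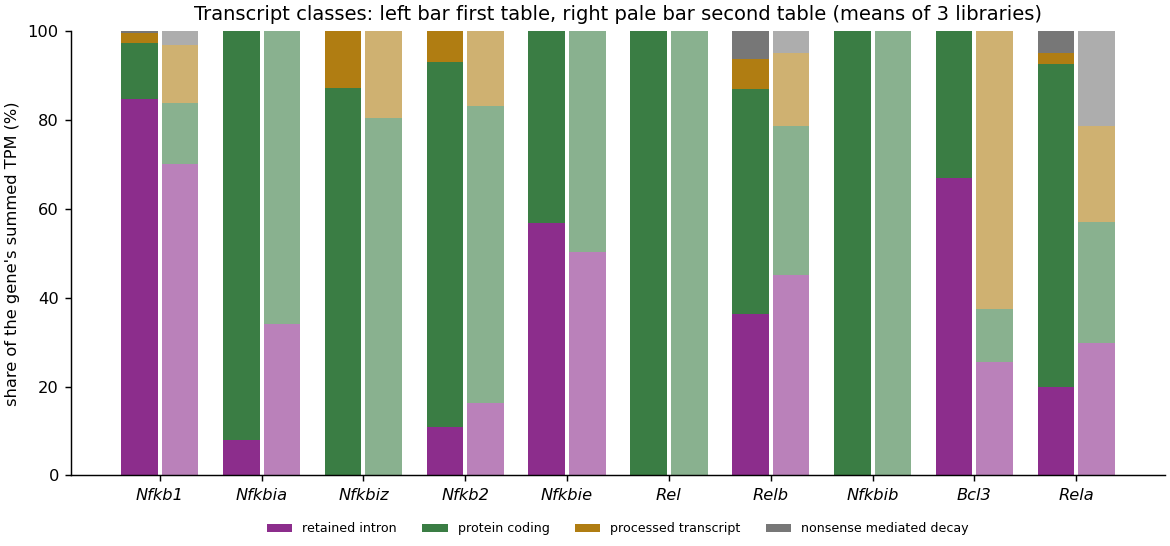
Share of each gene's summed TPM by transcript class, as means of 3 libraries, with the first table as the left bar and the second as the right, paler bar. Retained-intron transcripts make up 84.9% of Nfkb1 in the first table and 70.2% in the second, while for Bcl3 the second table moves 62.5% to processed transcripts, which the first lists at 0%.

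A second deposited transcript table, with estimated counts, gave higher levels for all 10 genes, as it did for the median detected coding gene, by 1.58-fold. The factor was smallest for Nfkbie, 1.06-fold, and Rel, 1.07-fold, and largest for Rela, 2.82-fold, and Bcl3, 3.46-fold, where the 10th and 90th percentiles over detected coding genes were 1.05 and 3.15. With those factors Nfkbia took first place, at 775 ± 115 TPM, ahead of Nfkb1 at 502 ± 32.2 TPM. Bcl3 moved to place 5 at 137.5 ± 2.91 TPM, and Nfkbib became the lowest at 65.7 ± 8.53 TPM.

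The factor was larger on short isoforms, by a split at 1000 bases chosen after the values were seen. Over the 14 transcripts of the 10 genes that are shorter than 1000 bases and reached 1 TPM in either table, the second table summed to 581 TPM and the first to 98.0 TPM, and 13 of 14 were higher in the second (92.9%, beside 88.7% of short transcripts of all genes). Over the 34 longer ones the sums were 1846 and 1443 TPM, with 25 of 34 higher (73.5%, beside 69.5%). The median log2 difference was 2.36 for the short and 0.45 for the long member transcripts, beside 1.21 and 0.30 over all genes. Nfkb1-205, a processed transcript of 528 bases, had 66.4 ± 4.94 TPM in the second table and 9.04 ± 1.19 TPM in the first. Bcl3-204 and Bcl3-205, of 460 and 346 bases, had 58.2 ± 5.25 and 27.8 ± 3.42 TPM in the second table and were listed at 0 in the first. Nfkbia-202, of 701 bases, had 268 ± 76.9 TPM in the second table and 29.95 ± 5.58 TPM in the first.

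Isoforms with the same ends were exchanged between the tables. For Relb the second table put its retained-intron level on Relb-205 (28.7 ± 2.96 TPM) and Relb-208 (19.5 ± 3.01 TPM), and its coding level mainly on Relb-201 (27.0 ± 4.36 TPM). The first table instead had mainly Relb-206 (20.6 ± 4.14 TPM) and Relb-202 (31.4 ± 5.98 TPM), with Relb-208 at 6.21 ± 1.64 TPM and Relb-205 at 0. The intronic pieces of Nfkb1 differed little between the tables: Nfkb1-208 had 66.9 ± 3.19 TPM and Nfkb1-210 had 64.9 ± 5.59 TPM in the second. Nfkbie-202, with its whole intron, had 59.0 ± 10.03 TPM there. Retained-intron isoforms were higher in 46.8% and coding isoforms in 32.4% of 6847 genes tested in that table, together 79.1%, and among the 7 genes the counts were 3 and 2. The calls of Nfkb1, Bcl3, Nfkb2 and Nfkbia kept their direction, at ratios of 2.36, 1.05, -2.02 and -0.95, while that of Relb turned and that of Rela was lost. Over all genes tested in both tables, 3758 were called in the first. Of these, 78.8% kept their direction in the second, 7.21% turned and 14% lost the call.

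Genes that overlap others are uncertain, since no source used here says whether the counting used strand. Nfkb2 shares 531 exonic bases with AC114539.1 and 299 with Psd, both on the opposite strand, at 14.8 ± 2.95 and 65.8 ± 9.14 TPM. Nfkbib shares 314 with Ccer2 and 42 with Sirt2, and Bcl3 shares 161 with the antisense gene Gm16175, which had 0.47 ± 0.81 TPM in the first table and 19.8 ± 4.55 TPM in the second. Rel, Rela, Relb, Nfkbia, Nfkbie and Nfkbiz overlapped no other gene listed in the tables. These overlapping loci, and Gm43430 above, were named for their position after their values had been seen.

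The genes around the family in the pathway are given from 3 lists. Of 12 genes of the IKK complex and the kinases and ubiquitin ligases upstream of it, 12 were detected, with a median of 17.4 TPM. Ikbkb, the catalytic subunit that phosphorylates classical IkB, was highest at 93.1, 124 and 120 TPM, followed by the adaptor Tab2 at 76.1 ± 9.8, the second catalytic subunit Chuk at 42.5 ± 4.28 and the kinase Map3k7 (TAK1) at 26.5 ± 4.77 TPM. Tab3, at 1.26 ± 0.08 TPM, and Tab1, at 1.59 ± 0.42 TPM, were the lowest. Of 9 with both isoform classes, 5 had retained-intron and 2 had coding isoforms higher, and the median ratio was 0.83, beside 35.5%, 31.9% and a median of 0.08 over all genes tested. The second table also gave 5 and 2, with a median of 1.06, beside 0.30 over all genes tested there. Sharpin, of the linear ubiquitin ligase, had the highest ratio, 4.01 (limma SE 0.21, adjusted p = 1.63e-06), and Ikbkb followed at 2.27 (SE 0.15, adjusted p = 5.01e-06). Ikbkg, the regulatory subunit NEMO, had -1.88 (SE 0.25, adjusted p = 0.000234) and Tab2 had -0.74 (SE 0.15, adjusted p = 0.0023). By the mean per transcript the Ikbkg ratio turned to 0.94 (adjusted p = 0.00462) and Tab2 was not called (-0.16, adjusted p = 0.35).

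Of 16 other IkB-like genes and regulators of NF-kB, 12 were detected, with a median of 7.36 TPM over the 16. Nfkbid, which encodes the nuclear inhibitor IkB-NS, was highest at 66.7, 71.7 and 69.3 TPM, between Relb and Nfkbib in the order of mean levels in the first table. Ppp4c, the catalytic subunit of a protein phosphatase, followed at 65.0 ± 6.86, then the IkB ubiquitin ligase subunits Fbxw11 at 37.1 ± 9.44 and Cul1 at 27.3 ± 2.44 TPM. Commd1, at 0.44 ± 0.13 TPM, and Ankrd42, at 0.70 ± 0.15 TPM, were the lowest. In the second table the mean of Nfkbid was 123 TPM, above Relb at 107 and Nfkbie at 117 TPM. Of 10 tested, 2 had retained-intron and 4 had coding isoforms higher, with a median of -0.18, against the background of 35.5% and 31.9%. The second table gave 5 and 6 of 11, with a median of -0.32. Ppp4c had 1.58 (SE 0.15, limma adjusted p = 3.15e-05) and Btrc, the second F-box subunit of that ligase, 1.06 (SE 0.24, adjusted p = 0.00478). Skp1a had -2.36 (SE 0.24, adjusted p = 4.46e-05) and Nfkbid had -1.91 (SE 0.18, adjusted p = 3.46e-05). The second table turned the Skp1a ratio to 2.1 (adjusted p = 4.69e-06), and by the mean per transcript Nfkbid was not called (-0.35, adjusted p = 0.13).

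Of 20 genes known as NF-kB targets, 19 were detected, with a median of 222 TPM. Tnfaip3, which encodes the deubiquitinase A20, had 656, 922 and 823 TPM, above Nfkb1 and Nfkbia in every library. The cytokine Il1b followed at 661 ± 88.6, the adhesion molecule Icam1 at 469 ± 45.8 and the mitochondrial enzyme Sod2 at 468 ± 62.9 TPM. In the second table Cd40, named after its values were seen, was highest at a mean of 1581 TPM, against 424 TPM in the first. Tnfaip3 had 1254 and Il1b 1215 TPM there. Nos2, at 1.23, 0.33 and 1.58 TPM, and Il6, at 4.93, 2.11 and 6.26 TPM, were lowest in the first table. Both had their lowest value in replicate 2, as had Il12b at 67.3, 13.1 and 57.4 TPM, a gene named after its values were seen. The list was split in this. Replicate 2 was also the lowest library for Ccl3, Ccl4, Ccl5, Icam1 and Cd40. It was the highest for Tnf, Il1b, Cxcl2, Sod2, Tnfaip3, Tnip1, Birc3, Traf1, Bcl2a1b and Irf1. Of 12 tested, 8 had retained-intron and 2 had coding isoforms higher, with a median of 0.71, against the background of 35.5% and 31.9% and a median of 0.08. In the second table the counts were 6 and 4 and the median was 0.28, near the 0.30 over all genes tested there. Traf1 was called with coding isoforms higher in that table (-0.53, limma adjusted p = 0.002), against 0.70 in the first, and Icam1 was not called (-0.03, adjusted p = 0.80), against 0.41 in the first. Tnip3, a partner of A20, had 3.49 (SE 0.17, limma adjusted p = 1.31e-06) and Sod2 had 2.29 (SE 0.16, adjusted p = 5.96e-06). The transcription factor gene Irf1 had -1.24 (SE 0.14, adjusted p = 0.000105) and Tnip1 had -0.71 (SE 0.15, adjusted p = 0.00307). By the mean per transcript both turned, Irf1 to 1.55 and Tnip1 to 2.25.

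**Figure D5:**
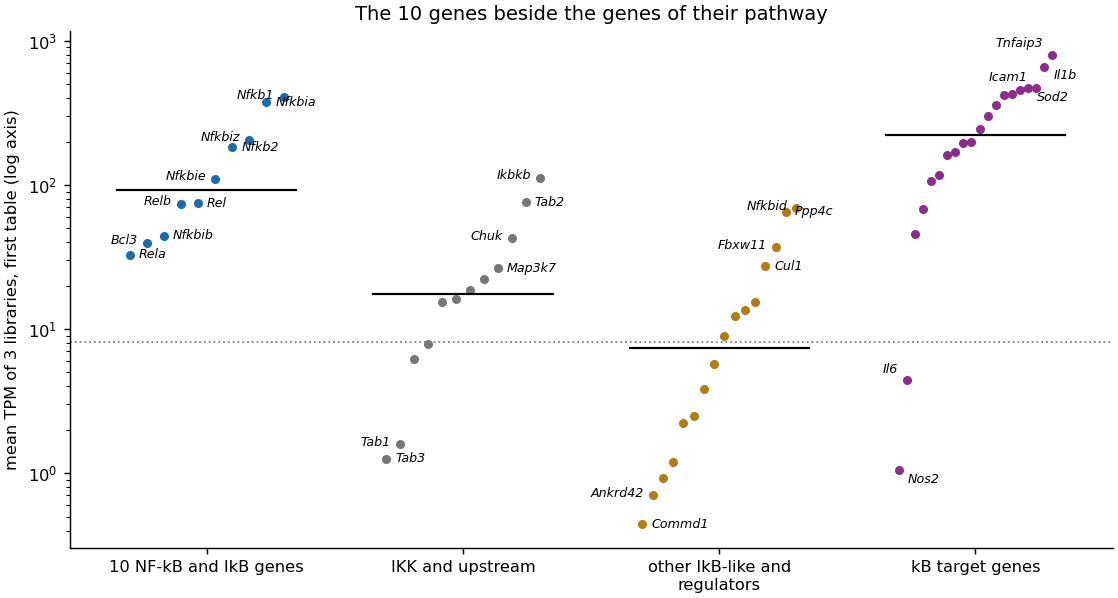
Mean TPM over 3 libraries, on a log axis, of the 10 genes and of 3 lists of their pathway, sorted by level within each list, with a bar at each list's median and a dotted line at the median detected coding gene. The medians are 92.6 TPM for the 10 genes, 17.4 for IKK and upstream genes, 7.36 for other regulators and 222 for targets.

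The coding genes nearest to each member in level over the 3 libraries were found by the root-mean-square distance of log2(TPM + 1). Nfkb1 lay nearest to Ctsc (0.13) and Sat1 (0.15), and Nfkb2 to Ik (0.08) and Dennd5a (0.08). Rel was followed after Relb by Nlrp1b (0.06), and Relb after Rel by Ilkap (0.04), while Rela lay nearest to Ipo5 (0.06) and Slc8a1 (0.06). For the inhibitors the nearest were Brd2 (0.06) and Abca1 (0.08) to Nfkbia, Trak1 (0.02) and Specc1l (0.03) to Nfkbib, and Ctsa (0.03) and Pan3 (0.03) to Nfkbie. Nfkbiz lay nearest to Huwe1 (0.06) and Lcp2 (0.11), and Bcl3 to Rictor (0.03) and Rnf111 (0.04). Between 21 genes for Nfkb1 and 270 for Bcl3 lay within a distance of 0.25, so nearness over 3 libraries of 1 condition says little beyond a like level.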

How the data were processed

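Per the labels and file headers, each of the 3 libraries had a gene and a transcript table on mm10 with GENCODE M21. The authors deposited an expected count and a TPM per row in the first pair of tables, under column names that RSEM writes, and an estimated count and a TPM per transcript in the second, under names that kallisto writes. The programs, versions and strand setting are not given in sources used here. Rows that name no gene, 1.40%, 0.352% and 0.354% of expected counts in replicates 1, 2 and 3, were left out. Library pairs differed beyond sampling noise (chi-square per degree of freedom 15.3 for replicates 1 and 3, and 36.9 for both pairs with replicate 2).

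The 10 genes and the lists were chosen with earlier results of these data known. Levels are TPM from the first gene table. Neighbours were tested by exact two-sided sign-flip permutation (n = 3, smallest p = 0.25). Isoform ratios, log2((retained-intron TPM + 0.5)/(coding TPM + 0.5)) in genes with a mean summed TPM of at least 1, were tested over all genes with limma 3.58.1 (intercept only, variance trend). The spread came from edgeR 4.0.16 (TMM, filterByExpr) on rounded expected counts. Both were tested on simulated data. Alternatives were the second table, pseudocounts of 0.1 and 1, no filter or a minimum of 5 TPM, no trend, means per transcript, all noncoding classes, other scalings (DESeq2 1.42.0 size factors for the spread) and each replicate left out. Named were the 10 genes and some, but not all, of their transcripts at 1 TPM or more in either table. Also named were, of each list, the 4 highest and 2 lowest genes and up to 2 largest ratios each way past 0.05, and the 2 nearest coding genes of each member. Depth limits Bcl3 most, and counts of 0 allow up to 3 counts, for counting error only. R was 4.3.3, python 3.11.15, pandas 2.3.3, scipy 1.17.1 and matplotlib 3.10.9.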

Additional observations from a re-analysis of the deposited data

How the results depend on the processing

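Of 77 alternative values for the 7 member ratios, 69 kept the direction and the side of the threshold, 4 lost the call, 1 gained it and 3 turned. The second table gave 3201 of 6847 genes with higher retained-intron isoforms, 46.8%, against 1987, 35.5%, and turned Rela to 0.13, Relb to 0.43 and Skp1a to 2.1. By the mean per transcript Relb was 0.23, Ikbkg 0.94, Irf1 1.55 and Tnip1 2.25, and with all noncoding classes Tnip1 was 0.058. A minimum of 5 TPM gave 1116 of 3492 genes with higher coding isoforms, 32%, against 1784 of 5601, 31.9%, so fewer genes were tested and that share barely moved. The share with higher retained-intron isoforms did move with the filter, from 35.5% to 42.8% at that minimum. Without a filter, 25.5% of 7947 genes had higher retained-intron and 25.8% higher coding isoforms. Leaving out a replicate gave 1716 to 1837 and 1491 to 1611 genes in the 2 directions. The second table turned the steps Nfkb1 minus Nfkbia to -0.62, Rel minus Relb to -0.41 and Nfkbib minus Bcl3 to -1.06. Levels not corrected for length (CPM) turned Nfkbia minus Nfkbiz to -0.45, Nfkbie minus Rel to -0.95 and Bcl3 minus Rela to -1.13, and Rel minus Relb ran from -0.016 to 0.031 over the libraries left out. Over the libraries left out in turn, the common coefficient of variation was 0.125 (without replicate 2) to 0.206, against 0.181. The causes of the other changes were not tested. With 1 group, 3 libraries and no unstimulated sample, no change on stimulation can be read from these levels. No samples could be paired between groups because there was only 1 group. The tests of levels and of isoforms used differences or ratios within each library.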

Other observations

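The largely intronic pieces of Nfkb1 lay at increasing distances from the gene start, and they were compared after their values had been seen. Gm43430, in intron 6, spans bases 36981 to 40877 from the start and had 79.3, 107 and 102 TPM. Nfkb1-208 spans 69405 to 73553 and had 60.3, 78.4 and 82.0 TPM. Nfkb1-210 spans 87688 to 89688 and had 52.3, 72.5 and 78.1 TPM. The level per length was lower at each step away from the start in 3 of 3 libraries. The second table had 90.5 ± 4.99, 66.9 ± 3.19 and 64.9 ± 5.59 TPM (SD, n = 3) for the same pieces, in the same order. Intronic positions of Nfkb1 outside these annotated pieces were not analysed here.

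Among the other noncoding loci that overlap a member, Gm16174, an antisense gene within Bcl3 with 0 shared exonic bases, had 5.96 ± 1.64 TPM in the first table and 70.8 ± 17.2 TPM in the second.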
